A study of Mus musculus with 8 samples.

Results

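Collagens are the triple-helical proteins of the extracellular matrix, and their chains are modified, folded and cross-linked by a small set of enzymes. The 56 genes described here were chosen by symbol, with earlier results of these data known. They include every gene of the deposited count table named Col, a number, the letter a and a number. The rest are the lysyl oxidases Lox and Loxl1 to Loxl4, the lysyl hydroxylases Plod1 to Plod3, the prolyl 4-hydroxylase subunits P4ha1 to P4ha3 and the chaperone gene Serpinh1. In all there were 44 collagen chains and 12 genes of processing, out of 23478 genes in the table. All 56 were among the 17069 genes that passed the filter on low counts and were tested.

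RNA sequencing had been done on 8 mouse libraries in 4 groups of 2, which the labels call biological replicates, to compare disseminated breast cancer cells with primary and established tumour cells and to follow the effect of a cytokine of T helper cells. DCC control and DCC IFN-gamma are disseminated cancer cells (DCC) from mice whose breast cancer spreads spontaneously, recovered from their bone marrow and kept in culture, the first untreated and the second treated with interferon-gamma. The sources used here give neither its dose nor its duration. The early lesion group is primary cancer cells from an early mammary tumour, whose sample titles name neuT, the activated rat HER2 homologue. TUBO is an established mouse mammary carcinoma cell line that carries the same oncogene, and both it and the early lesion cells were labelled as controls. All 4 groups were given the genotype WT in the labels, although the treatment protocol speaks of a transgenic mouse model. Ages are not stated in the labels, nor whether a DCC culture came from 1 animal or several, and TUBO is a single line, so its replicates do not stand for separate tumours.

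Procollagen chains are made in the endoplasmic reticulum, where prolyl 4-hydroxylases make the triple helix stable at body temperature, lysyl hydroxylases prepare the sites of later cross-links and the chaperone HSP47 (Serpinh1) holds the folded helix. Secreted fibrillar collagens are trimmed, laid into fibrils and cross-linked by lysyl oxidases. In bone and other connective tissue the main fibrils are of types I, III and V, in cartilage of types II, IX and XI, and the sheet under an epithelium is built of type IV. Epithelial cells are known mainly for basement membrane collagens, while osteoblasts and fibroblasts are known for the fibrillar ones.

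Sequence is shown for 4 genes, chosen after their values were seen, that stand for the main patterns: Col3a1, high in the DCC libraries, Col9a1, high in the early lesion and TUBO libraries, Col11a1, high in DCC control and early lesion, and Col8a1, the chain that was higher with interferon-gamma. The 150 bases before the first listed RefSeq start of each (GRCm38.p6, written 5′ to 3′ on the strand of the gene, no annotated exon in the window) are given so that these 4 patterns can be read beside the upstream sequence. Col3a1 lies at chr1:45311388-45311537 on the plus strand, Col9a1 at chr1:24177460-24177609 plus, Col11a1 at chr3:114030390-114030539 plus and Col8a1 at chr16:57754738-57754887 minus. Capitals mark matches on either strand to 3 motifs: the TATA box as TATAAA, the motif of NF-Y as CCAAT and the GC box of Sp1 as GGGCGG.
Col3a1: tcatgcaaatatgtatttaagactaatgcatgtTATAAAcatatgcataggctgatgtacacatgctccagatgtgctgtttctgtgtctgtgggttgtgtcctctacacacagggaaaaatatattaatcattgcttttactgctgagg
Col9a1: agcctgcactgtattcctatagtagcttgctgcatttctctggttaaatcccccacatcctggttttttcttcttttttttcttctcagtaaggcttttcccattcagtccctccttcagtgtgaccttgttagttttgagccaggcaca
Col11a1: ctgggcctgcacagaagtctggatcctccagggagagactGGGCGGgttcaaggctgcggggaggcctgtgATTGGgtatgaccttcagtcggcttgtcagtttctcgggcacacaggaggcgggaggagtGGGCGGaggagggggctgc
Col8a1: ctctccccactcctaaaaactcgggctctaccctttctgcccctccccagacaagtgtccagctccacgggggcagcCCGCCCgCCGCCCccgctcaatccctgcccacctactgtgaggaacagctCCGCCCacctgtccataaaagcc
Col3a1 had TATAAA 117 bases before its start, Col11a1 had CCAAT at 79 and GGGCGG at 110 and 19, and Col8a1 had GGGCGG at 73, 66 and 23, while no match was found in the Col9a1 window. The matches did not overlap one another. A second listed start of Col9a1, whose window is not shown, had CCAAT 18 bases before it. Of the 56 genes 42 were in the promoter table, with 45 windows. GGGCGG was found in 24 of these 45 windows against 28.6% of all 32851 windows of the same length, CCAAT in 8 against 24.5% and TATAAA in 4 against 7.57%. A further motif that was searched, TTCNNNGAA with N as any base, was found in 1 of the 45 windows against 4.09%. It had no match in the 4 sequences shown. A match is a description of the letters, not of a site in use.

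Gene counts per library ranged from 15432210 to 30168475, and 3 counts, the limit that a count of 0 allows, stood for 0.0953 to 0.183 CPM (counts scaled by library size and TMM factor). Intervals and limits from counts cover counting error only. Of the 8 libraries, replicate 1 of DCC control and replicate 2 of early lesion differed from the rest. Reads assigned to no gene were 63.7% and 57.2% of all counted reads there against 35.2% to 45.1% in the other 6, and 47.7% and 63.6% of 1457 olfactory and vomeronasal receptor genes had a count, against 1.03% to 11.9%. Calls of the collagen and processing genes were also made without these libraries, as were the numbers of calls over all genes. Tests of the other gene lists were not repeated without them. The median log2 differences of the collagen and processing genes were not recomputed without them either. Of the 10 epithelial marker genes, the summed level was 5.24 and 3.37 CPM in DCC control, 0.367 and 0.459 after interferon-gamma, 2940.5 and 2755 in early lesion cells and 5532 and 5902 in TUBO. Epcam was at 0 in 3 of the 4 DCC libraries and at 0.158 CPM in the other. The oncogene's mouse counterpart Erbb2 was at 21.2 to 39.0 CPM in the DCC libraries and at 238 to 258 CPM in the other 4, lower but well above the limit of detection. Thus the epithelial markers were close to absent in the cells labelled as disseminated cancer cells, and Erbb2 was detected at a lower level. With no non-tumour sample in the series, the Erbb2 level does not show whether the DCC libraries came from tumour cells. Fibroblast and marrow stroma markers (10 genes) summed to 635 to 1151 CPM in the DCC libraries against 25.3 to 82.5 CPM elsewhere, and 8 osteoblast markers, mostly Spp1, to 10059 to 25142 against 3475 to 4432 CPM. Cartilage markers (5 genes) summed to 149.9 to 638 CPM over the 8 libraries, pericyte and smooth muscle markers (5 genes) to 0 to 39.5 CPM and endothelial markers (6 genes) to 0.345 to 8.95 CPM. Their part in the collagen results was not tested, and in bulk RNA fewer cells of a type and less RNA per cell cannot be told apart.

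The collagen chains took up 1.51% and 1.62% of all gene counts in DCC control, 0.205% and 0.385% after interferon-gamma, 0.339% and 0.354% in early lesion cells and 0.207% and 0.188% in TUBO. The exact 95% binomial intervals ran from 1.51% to 1.52% and from 1.61% to 1.62% in DCC control and from 0.203% to 0.207% and 0.383% to 0.388% in DCC IFN-gamma. Both untreated DCC libraries lay above the other 6, and the interferon-gamma replicates differed from each other by more than those of any other group. Of the 44 chains 20 reached a mean of 10 CPM in DCC control, 18 after interferon-gamma, 14 in early lesion and 12 in TUBO. The colour map of all genes by library shows these sets as blocks by collagen class.

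**Figure D1:**
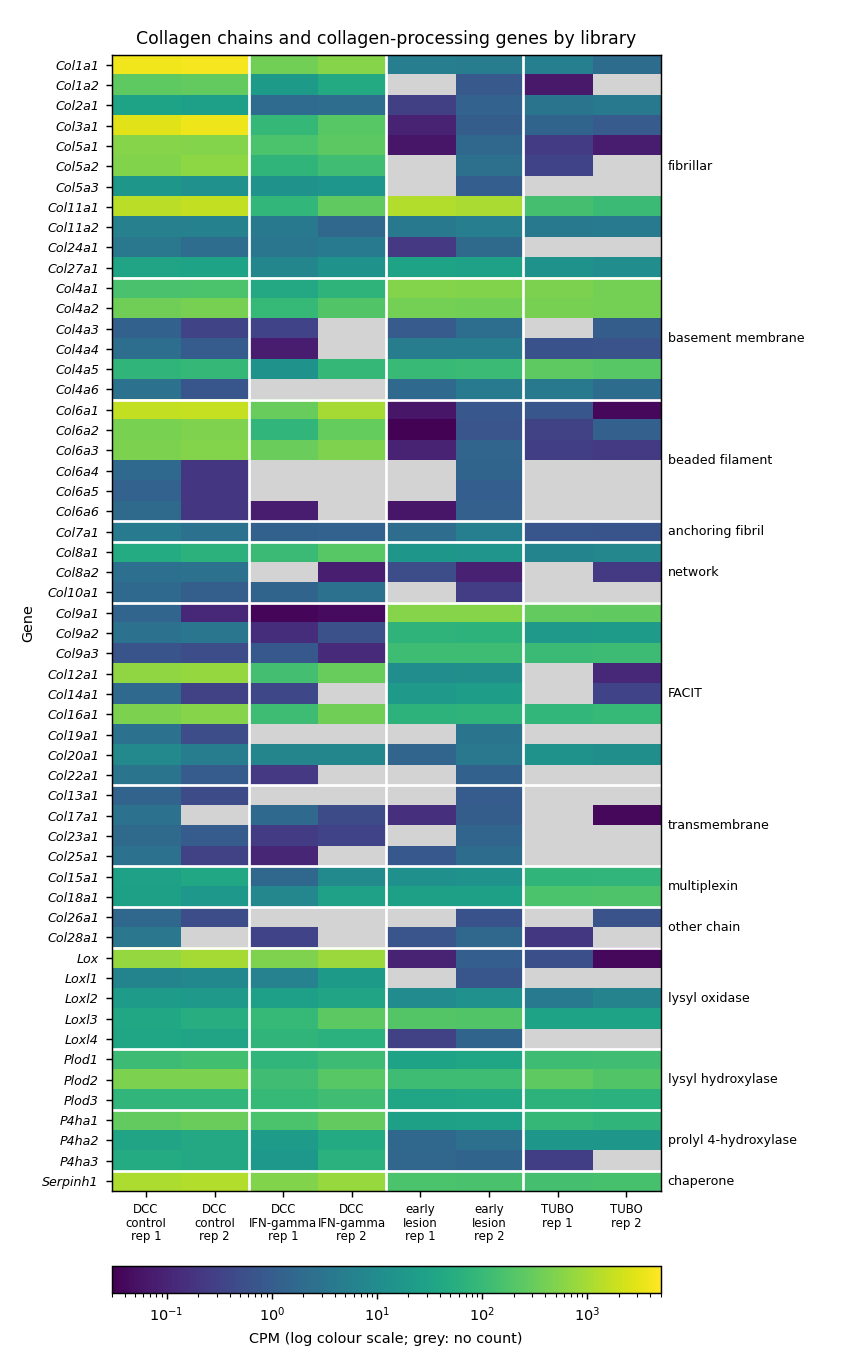
Level of all 56 genes (vertical axis, grouped by collagen or enzyme class) in the 8 libraries (horizontal axis), as CPM on a log colour scale, with grey where no read was counted. The fibrillar chains of types I, III and V, the type VI chains Col6a1 to Col6a3, Lox and Serpinh1 are brightest in the 4 DCC libraries and Col9a1 to Col9a3 in the other 4, and many low chains have counts mainly in replicate 1 of DCC control and replicate 2 of early lesion.

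To compare genes with each other, CPM was divided by the length in kb of the longest protein-coding transcript. On this per-kb scale Col1a1, the main chain of bone and tendon collagen, led DCC control at 658 and 721 CPM per kb, followed by Col3a1 at 534 and 652, Col6a1 at 399 and 416 and Col11a1 at 189 and 214. Col1a1 made up 27.4% and 26.7% of the summed chain level there, and Col1a1, Col3a1 and Col6a1 did not overlap one another. In DCC IFN-gamma Col6a1 came first at 76.3 and 247 CPM per kb and Col1a1 second at 64.0 and 93.7, with overlapping libraries. Early lesion cells had a different order, led by Col11a1 at 163 and 145 and Col9a1 at 146 and 144 CPM per kb, which overlapped, then Col4a1 at 81.6 and 79.1, Col4a2 at 61.6 and 60.2 and Col9a3 at 40.1 and 39.9. TUBO had Col9a1 at 71.7 and 69.0, Col4a1 at 70.8 and 61.5 and Col4a2 at 67.1 and 61.5 CPM per kb in the first 3 places, then Col4a5 at 38.6 and 33.9 and Col9a3 at 35.2 and 37.7. In TUBO the libraries of Col4a1 overlapped with those of Col9a1 and of Col4a2, and those of Col4a5 with Col9a3, while both Col9a1 libraries lay above both of Col4a2. Across genes, then, the DCC cultures were led by fibrillar and type VI chains, and the early lesion and TUBO libraries by chains of types IX and IV, with Col11a1 as the exception that early lesion shared with DCC control.

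**Figure D2:**
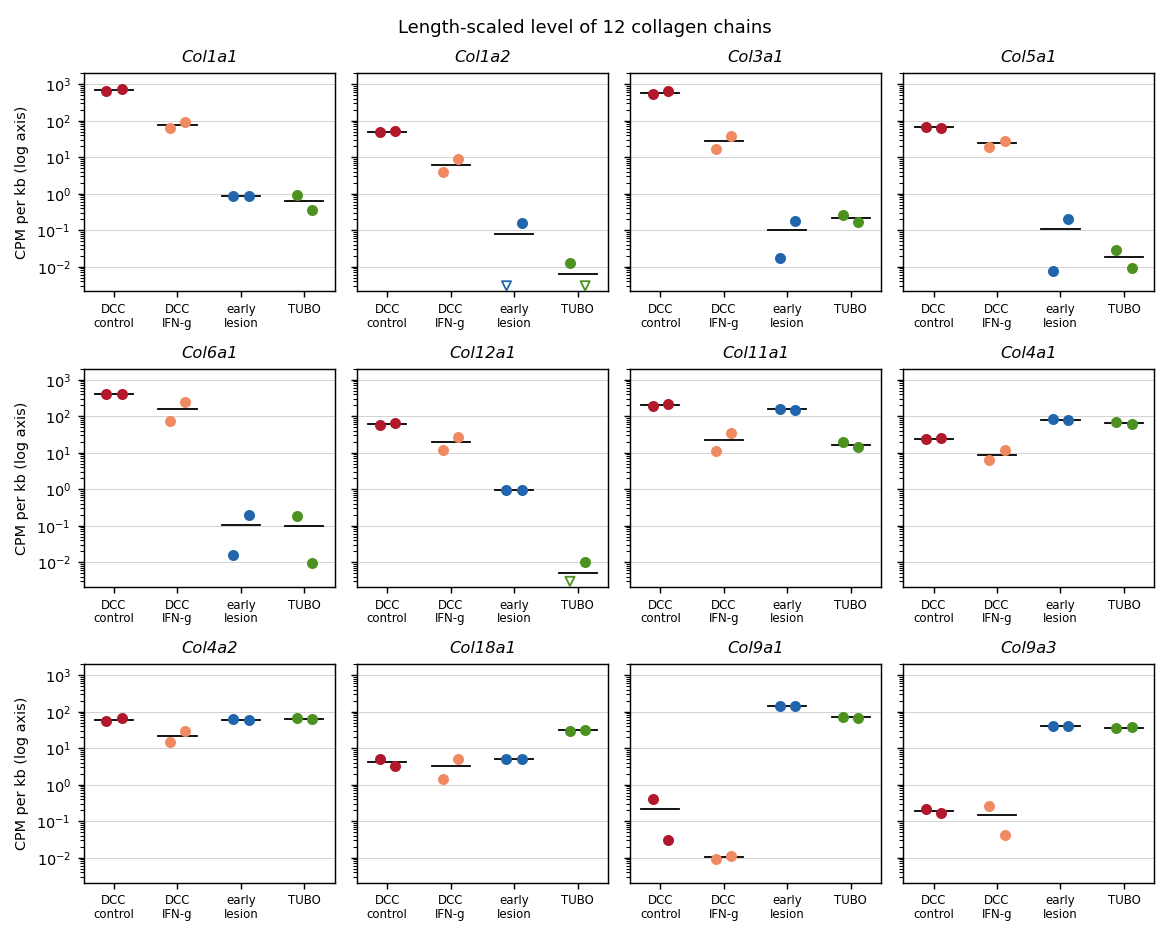
Length-scaled level (CPM per kb, log axis) of 12 collagen chains in the 4 groups, with 1 point per library and a bar at the group mean. Open triangles at the bottom mark libraries with no read, and the 2 Col9a1 libraries of early lesion sit at 146 and 144 while those of DCC IFN-gamma sit at 0.00956 and 0.0109.

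Fibrillar chains of types I, III and V separated the DCC cultures from both epithelial groups. Libraries of DCC control did not overlap those of early lesion in 70.4% of all tested genes, nor those of TUBO in 76.5%. That share was 66.1% between the 2 DCC groups and 61.8% between TUBO and early lesion. Col1a1 (chr11:94936224-94953042, GRCm38) stood at 3899.9 and 4274 CPM in DCC control, 379 and 555 after interferon-gamma, 5.12 and 4.996 in early lesion cells and 5.42 and 2.14 in TUBO. No DCC library overlapped one of the other 2 groups. DCC control was higher than early lesion by 9.66 ± 0.50 on the log2 scale (SE; edgeR's quasi-likelihood test, p adjusted by Benjamini-Hochberg over all tested genes = 1.38e-06) and higher than TUBO by 10.07 ± 0.51 (adjusted p = 1.13e-06). Col1a2, its partner in type I collagen, was at 255 and 283 CPM in DCC control, 20.6 and 46.5 after interferon-gamma, 0 and 0.847 in early lesion cells and 0.0690 and 0 in TUBO. With only 2 counts in both TUBO libraries together, the pooled ratio of DCC control to TUBO was 7499 with a counting interval of 2075 to 61929. Type I collagen is usually built with more alpha 1 than alpha 2 chains. The per-kb ratio of Col1a1 to Col1a2 was 13.8 and 13.6 in DCC control and 16.6 and 10.8 in DCC IFN-gamma. This ratio is of reads, depends on the transcript lengths used and is not the ratio of chains in the protein.

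Col3a1, the chain of the thin fibrils of skin, vessels and healing tissue, was at 2969 and 3629 CPM in DCC control, 92.0 and 216 after interferon-gamma, 0.0953 and 1.03 in early lesion cells and 1.45 and 0.953 in TUBO. It was higher in DCC control than in early lesion by 12.67 ± 0.96 on the log2 scale (edgeR adjusted p = 9.62e-05) and than in TUBO by 11.41 ± 0.90 (adjusted p = 0.000106). Its neighbour Col5a2 (tail to tail on chromosome 1, 24614 bases apart) was at 509 and 649.9 CPM in DCC control, 80.1 and 126 after interferon-gamma, 0 and 2.50 in early lesion cells and 0.345 and 0 in TUBO. Col5a1, which pairs with Col5a2 in the type V collagen that sets fibril width, was at 570.4 and 530.3 CPM in DCC control, 163 and 239 after interferon-gamma, 0.0636 and 1.74 in early lesion cells and 0.241 and 0.0763 in TUBO. In all 3 genes early lesion replicate 2, 1 of the libraries that stood apart, was above replicate 1. Both type V chains were called higher in DCC control than in early lesion, by 9.40 ± 0.92 for Col5a1 and 9.003 ± 1.29 for Col5a2 (edgeR adjusted p = 0.000327 and 0.00272), and these calls kept their side of the threshold in all 16 alternatives tried.

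Col11a1, a type XI chain known from cartilage and from tumour stroma, did not follow types I, III and V. It was at 1451 and 1638 CPM in DCC control, 86.5 and 266 after interferon-gamma, 1248 and 1111 in early lesion cells and 147 and 111 in TUBO. The difference between DCC control and early lesion was 0.39 ± 0.47 on the log2 scale and was not called (edgeR adjusted p = 0.64), which does not show equal levels. TUBO was lower than early lesion, with a log2 difference of -3.20 ± 0.52 (adjusted p = 0.00550), a call that was lost when TUBO replicate 2 was left out (adjusted p = 0.0623). The partners of Col11a1 in cartilage fibrils were low. Col11a2 was at 1.67 to 5.82 CPM in all 8 libraries, and Col2a1, the main cartilage chain, was at 32.1 and 26.8 CPM in DCC control and at 0.286 to 3.81 CPM in the other 6 libraries. The per-kb ratio of Col11a1 to Col11a2 was 200.04 and 222 in DCC control, 17.6 and 126 after interferon-gamma, 258 and 169 in early lesion cells and 29.7 and 21.8 in TUBO. Of the remaining fibrillar chains, Col27a1 was at 34.0 and 32.8 CPM in DCC control, 7.40 and 13.7 after interferon-gamma, 31.8 and 28.8 in early lesion cells and 13.9 and 10.7 in TUBO, so that, as for Col11a1, DCC control and early lesion lay above DCC IFN-gamma and TUBO. Col5a3 was at 12.99 to 17.6 CPM in the DCC libraries and at 0 in both TUBO libraries, which makes it at least 140.4-fold higher in DCC control against 3 counts per library. That call was lost without any 1 of 5 libraries (DCC control replicates 1 and 2, DCC IFN-gamma replicates 1 and 2 and TUBO replicate 1), with adjusted p between 0.0521 and 0.102.

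The beaded filaments of type VI collagen, which anchor cells to the surrounding matrix, were close to absent outside the DCC cultures. Col6a1 was at 1634 and 1707 CPM in DCC control, 313 and 1012 after interferon-gamma, 0.0636 and 0.803 in early lesion cells and 0.759 and 0.0381 in TUBO. Col6a2 was at 447 and 494, 83.4 and 298, 0.0318 and 0.714, and 0.310 and 1.18 CPM in the same order of libraries, and Col6a3 at 467 and 544, 315 and 489, 0.0953 and 1.52, and 0.276 and 0.229 CPM. All 3 were higher in DCC control than in early lesion, by 12.07 ± 1.23, 10.48 ± 1.17 and 9.44 ± 0.83 on the log2 scale (edgeR adjusted p = 0.000395, 0.000589 and 0.000197). Against TUBO the differences were 11.97 ± 1.22, 9.32 ± 1.07 and 10.93 ± 0.91 (adjusted p = 0.000369, 0.000655 and 0.000142). The per-kb ratio of Col6a1 to Col6a2, which lie 85161 bases apart on chromosome 10 with no other table gene between them, was 4.15 and 3.92 in DCC control and 4.25 and 3.85 after interferon-gamma, although the levels of both differed more than 3-fold between the interferon-gamma replicates. The alternative chains Col6a4, Col6a5 and Col6a6 did not exceed 1.89 CPM in any library, and their counts lay mostly in replicate 1 of DCC control and replicate 2 of early lesion.

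The type IV chains Col4a1, Col4a2 and Col4a5, of the network of the basement membrane, had a mean of at least 10 CPM in all 4 groups, as did Col11a1, Col16a1, Col18a1 and Col27a1. Col4a1 was at 155 and 165 CPM in DCC control, 42.0 and 76.5 after interferon-gamma, 539 and 523 in early lesion cells and 468 and 407 in TUBO. It was lower in DCC control than in early lesion, with a log2 difference of -1.73 ± 0.25 (edgeR adjusted p = 0.000365), and than in TUBO, with -1.45 ± 0.25 (adjusted p = 0.00100), and both calls held in all 16 alternatives. Its partner Col4a2 was at 368 and 423 CPM in DCC control, 96.1 and 193 after interferon-gamma, 398 and 389 in early lesion cells and 433 and 397 in TUBO, and was called in neither of those comparisons. The main type IV protein holds more alpha 1 than alpha 2 chains, and the genes are transcribed apart from a shared start region on chromosome 8, where their annotated first exons overlap by 22 bases (Col4a1 chr8:11198423-11312826 minus, Col4a2 chr8:11312805-11449287 plus). The per-kb ratio of Col4a1 to Col4a2 was 0.411 and 0.381 in DCC control, 0.426 and 0.387 after interferon-gamma, 1.32 and 1.31 in early lesion cells and 1.06 and 0.999 in TUBO. Every DCC library thus had fewer Col4a1 than Col4a2 reads per kb, and the 3 levels of the ratio did not overlap. The ratio had no test of its own. Col4a5 was at 80.0 and 90.0, 13.5 and 89.5, 98.2 and 108, and 253 and 221 CPM in the 4 groups, and was called in none of the 4 comparisons. Col4a6, head to head with Col4a5 on the X chromosome, did not exceed 4.06 CPM, nor did Col4a3 and Col4a4 exceed 4.73 CPM.

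**Figure D3:**
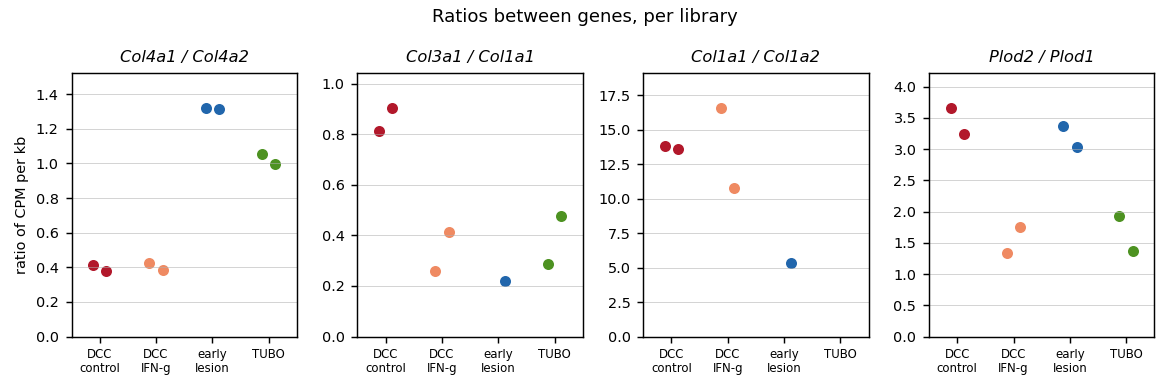
Ratios of CPM per kb between 4 pairs of genes (vertical axes, linear from 0), with 1 point per library in the 4 groups and no point where either gene had fewer than 10 counts. Col4a1 over Col4a2 is 0.381 to 0.426 in the 4 DCC libraries and 0.999 to 1.32 in the other 4, and Plod2 over Plod1 is 3.24 to 3.67 in DCC control and 1.33 to 1.75 in DCC IFN-gamma.

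Type IX collagen, which sits on the surface of cartilage fibrils and belongs to the fibril-associated (FACIT) class, had the reverse pattern to types I, III and VI. Col9a1 (chr1:24177610-24252684) was at 1.52 and 0.119 CPM in DCC control, 0.0367 and 0.0417 after interferon-gamma, 559 and 552 in early lesion cells and 275 and 264 in TUBO. Col9a3 was at 0.670 and 0.515, 0.806 and 0.125, 122 and 121, and 107 and 115 CPM, and Col9a2 at 2.80 and 3.45, 0.147 and 0.584, 75.1 and 70.2, and 20.5 and 22.7 CPM. The groups did not overlap for any of the 3 chains when DCC was set against early lesion and TUBO. All 3 were lower in DCC control than in early lesion, with log2 differences of -9.60 ± 0.70 for Col9a1, -7.70 ± 0.46 for Col9a3 and -4.53 ± 0.33 for Col9a2 (edgeR adjusted p = 7.68e-05, 3.50e-06 and 2.53e-06). TUBO was lower than early lesion in Col9a2, with -1.75 ± 0.29 (adjusted p = 0.00152), while the differences of -1.04 ± 0.45 for Col9a1 and -0.14 ± 0.30 for Col9a3 were not called (adjusted p = 0.15 and 0.77). Col9a1 was called without DCC control replicate 1 (0.00127) or 2 (0.000490) and by DESeq2 (0.0443). Col19a1, which ends 9205 bases from the end of Col9a1, did not exceed 3.08 CPM, with its highest values in early lesion replicate 2 and DCC control replicate 1. About 6.07% of the annotated exon bases of Col9a3 are shared with Tcfl5, and without a stated strand setting their reads cannot be told apart there.

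The other fibril-associated chains fell on both sides. Col12a1, which decorates type I fibrils, was at 666 and 739.9 CPM in DCC control, 139.6 and 309 after interferon-gamma, 10.8 and 11.3 in early lesion cells and 0 and 0.114 in TUBO. It was higher in DCC control than in early lesion by 5.99 ± 0.46 on the log2 scale (edgeR adjusted p = 5.44e-05), and the pooled ratio to the 3 counts of TUBO was 13075 with a counting interval of 4473 to 63403. Early lesion in turn exceeded TUBO by a pooled ratio of 202 (68.9 to 985). Col16a1 was at 475 and 555, 119 and 368, 70.9 and 74.0, and 84.2 and 94.4 CPM, higher in DCC control than in either epithelial group by 2.83 ± 0.50 and 2.53 ± 0.50 (adjusted p = 0.00491 and 0.00711). Both Col16a1 calls were lost without DCC control replicate 2 (0.0691 and 0.0817), and that against TUBO also without TUBO replicate 1 or 2 (0.0635 and 0.0629). Col14a1 was at 20.0 and 24.4 CPM in early lesion and did not exceed 1.83 CPM elsewhere. Its call against DCC control (edgeR adjusted p = 0.0366) was lost without either DCC control or either early lesion library, at 0.0603 to 0.225, and with DESeq2 (0.0913). Col20a1 was the single chain of this class with its highest libraries in TUBO, at 14.0 and 11.7 CPM against 1.49 to 8.46 in the other 6.

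Multiplexins, which link basement membranes to the matrix and of which Col18a1 is the source of endostatin, were highest in TUBO. Col18a1 was at 27.9 and 18.5 CPM in DCC control, 7.88 and 28.8 after interferon-gamma, 28.1 and 27.8 in early lesion cells and 169 and 180.0 in TUBO. Both TUBO libraries lay above the other 6. The difference to early lesion was 2.64 ± 0.57 on the log2 scale (edgeR adjusted p = 0.0180), and the call was lost without DCC control replicate 2 or any early lesion or TUBO library (adjusted p = 0.0900 to 0.118). Col15a1 was at 29.4 and 41.1, 1.69 and 9.09, 12.6 and 13.6, and 77.9 and 83.3 CPM, higher in TUBO than in early lesion by 2.62 ± 0.65 (adjusted p = 0.0307). That call was lost without any 1 of the 6 libraries of DCC control, early lesion and TUBO (0.0686 to 0.170).

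Network chains were represented by Col8a1, a short-chain collagen of vessel walls and of the cornea, at 50.1 and 68.8 CPM in DCC control, 107 and 217 after interferon-gamma, 17.4 and 15.7 in early lesion cells and 6.93 and 8.01 in TUBO. The 4 groups did not overlap, and DCC control was higher than early lesion by 1.85 ± 0.33 and than TUBO by 2.99 ± 0.34 on the log2 scale (edgeR adjusted p = 0.00226 and 0.000192).

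The remaining chains were low. In all, 19 chains had a group mean under 10 CPM in every group (Col4a3, Col4a4, Col4a6, Col6a4, Col6a5, Col6a6, Col7a1, Col8a2, Col10a1, Col11a2, Col13a1, Col17a1, Col19a1, Col22a1, Col23a1, Col24a1, Col25a1, Col26a1 and Col28a1). All 19 had at least 3 counts in DCC control replicate 1 and 18 had them in early lesion replicate 2, against 5 to 17 in the other 6 libraries. Their summed level was 49.0 and 40.1 CPM in those 2 libraries and 9.42 to 20.9 CPM in the rest. Not all of the 19 followed those libraries: Col4a4 was at 4.67 and 4.73 CPM in the early lesion libraries, Col8a2 at 2.43 and 2.65 CPM in DCC control and Col24a1 at 3.45 and 4.13 CPM in DCC IFN-gamma. The part of the 2 libraries in the differences of the other chains was not tested.

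**Figure D4:**
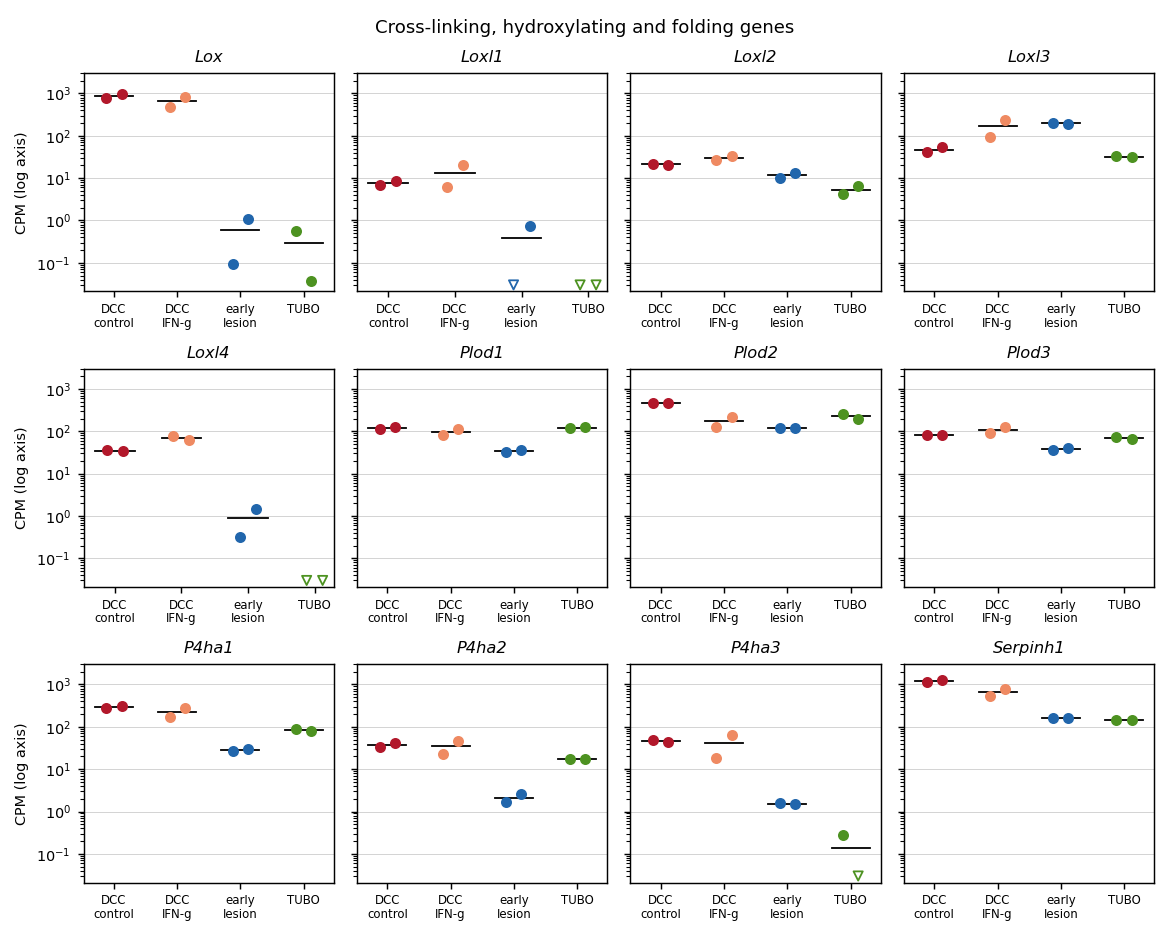
Level (CPM, log axis) of the 12 cross-linking, hydroxylating and folding genes in the 4 groups, with 1 point per library and a bar at the group mean. Open triangles at the bottom mark libraries with no read, and Lox lies at 486 to 969 CPM in the 4 DCC libraries and at 0.0381 to 1.07 CPM in the other 4.

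Lysyl oxidases, which start the cross-links of collagen and elastin, differed from each other more than the hydroxylases did. Lox was at 763 and 969 CPM in DCC control, 486 and 812 after interferon-gamma, 0.0953 and 1.07 in early lesion cells and 0.552 and 0.0381 in TUBO. It was higher in DCC control than in early lesion by 10.68 ± 0.94 on the log2 scale (edgeR adjusted p = 0.000193) and than in TUBO by 11.45 ± 0.98 (adjusted p = 0.000158). Loxl4 was at 35.5 and 33.5, 78.3 and 63.9, 0.318 and 1.43, and 0 and 0 CPM, at least 317-fold higher in DCC control than in TUBO against 3 counts per library. Loxl1 was at 6.27 to 20.9 CPM in the DCC libraries and at 0 to 0.758 in the others, and was called against TUBO (edgeR adjusted p = 0.0138) but not against early lesion (0.0544), where it was called without early lesion replicate 1 (0.0188) or 2 (0.00120). The TUBO call was lost without DCC control replicate 1 or 2, DCC IFN-gamma replicate 1 or TUBO replicate 1 or 2 (0.0581 to 0.114). Loxl2, also an enzyme of type IV collagen, was at 22.0 and 20.0, 26.7 and 32.9, 9.79 and 13.4, and 4.21 and 6.48 CPM. Its difference between DCC control and early lesion was the smallest called among the 24 higher genes, 0.86 ± 0.28 (adjusted p = 0.0319), and was lost without DCC control replicate 1 (0.123) or 2 (0.0596) or early lesion replicate 1 (0.252). Loxl3 went the other way from Lox between DCC control and early lesion. Its difference of DCC control to TUBO, 0.54 ± 0.40 on the log2 scale, was not called (edgeR adjusted p = 0.30). Loxl3 was at 40.5 and 53.6 CPM in DCC control and 94.7 and 238 after interferon-gamma. In early lesion cells it was at 204 and 187 CPM and in TUBO at 32.8 and 32.0. It was lower in DCC control than in early lesion, with -2.05 ± 0.41 (adjusted p = 0.00682), which was lost without DCC control replicate 1 or 2 (0.0604 and 0.0607), and lower in TUBO than in early lesion, with -2.59 ± 0.42 (0.00493), lost without TUBO replicate 2 (0.0637). Of its annotated exon bases 11.6% are shared with Htra2.

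Prolyl 4-hydroxylase subunits were highest in the DCC cultures. P4ha1, the catalytic subunit of the main enzyme, was at 283 and 318 CPM in DCC control, 169.5 and 278 after interferon-gamma, 27.6 and 29.6 in early lesion cells and 88.1 and 77.9 in TUBO. P4ha2 was at 34.3 and 41.6, 22.5 and 46.3, 1.65 and 2.59, and 17.7 and 17.5 CPM, and P4ha3 at 48.8 and 43.4, 18.7 and 64.4, 1.56 and 1.47, and 0.276 and 0 CPM. All 3 were higher in DCC control than in early lesion, by 3.39 ± 0.24, 4.18 ± 0.39 and 4.92 ± 0.77 on the log2 scale (edgeR adjusted p = 1.66e-06, 2.33e-05 and 0.00276). TUBO lay between the DCC and early lesion groups for P4ha1 and P4ha2, higher than early lesion by 1.54 ± 0.22 and 3.07 ± 0.38 (adjusted p = 0.000728 and 0.000398). Both of these calls held in all 16 alternatives.

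Lysyl hydroxylases had smaller contrasts. Plod2, which hydroxylates the telopeptides and so sets the type of cross-link, was at 469 and 475 CPM in DCC control, 126 and 223 after interferon-gamma, 122 and 122 in early lesion cells and 257 and 192 in TUBO. It was higher in DCC control than in early lesion by 1.95 ± 0.26 on the log2 scale (edgeR adjusted p = 0.000249) and than in TUBO by 1.07 ± 0.25 (0.00688, and 0.0634 without TUBO replicate 2). Plod1 was at 113 and 129.7, 83.9 and 113, 32.0 and 35.5, and 118 and 124 CPM, so that TUBO and DCC control overlapped and early lesion lay below both, by 1.84 ± 0.18 against TUBO (adjusted p = 6.51e-05). Plod3 was at 82.5 and 80.3, 92.3 and 127, 36.5 and 40.5, and 71.7 and 64.5 CPM, again lowest in early lesion, and 11.9% of its annotated exon bases are shared with Znhit1 and Mir702. Serpinh1, the procollagen chaperone, was at 1156 and 1278 CPM in DCC control and 522 and 798 after interferon-gamma. It was at 164 and 158 CPM in early lesion cells and 146 and 148 in TUBO. On the per-kb scale it was above every hydroxylase and lysyl oxidase in both DCC control libraries, at 509 and 562 CPM per kb. The chaperone was higher in DCC control than in early lesion by 2.92 ± 0.22 and than in TUBO by 3.05 ± 0.22 (edgeR adjusted p = 2.78e-06 and 1.94e-06), and TUBO and early lesion differed by -0.13 ± 0.20 (not called, adjusted p = 0.66).

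The comparison of DCC control with DCC IFN-gamma asked what the cytokine changed in these cultures. Interferon-gamma is known to lower type I collagen synthesis in fibroblasts. Of the 56 genes 15 fell and 2 rose (edgeR adjusted p under 0.05), or 26.8% and 3.57%, where 8.83% of all tested genes fell and 12.6% rose (21.4% in either direction). The median log2 fold change was -1.44 over the 56 genes, and also -1.44 with the 6 genes that had no count in 1 group set at their bound, against -0.20 over all tested genes. This median includes the 19 low chains, which summed to 49.0 and 20.9 CPM in DCC control replicates 1 and 2. It was not recomputed without DCC control replicate 1. Among the chains 13 of 44 fell and 1 rose, and among the processing genes 2 of 12 fell and 1 rose. By class, 6 of 11 fibrillar chains, 4 of 6 type IV chains and 0 of 6 type VI chains were called lower. The lack of a call does not show that the type VI chains were unchanged. No gene rose without DCC control replicate 1, and 1 rose without DCC control replicate 2 or TUBO replicate 2.

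Col3a1, Col1a1 and Col11a1, whose values in every library are given above, fell furthest among the abundant chains. Col3a1 fell by 4.42 on the log2 scale (SE 0.64, edgeR adjusted p = 0.00472), and the per-kb ratio of Col3a1 to Col1a1 went from 0.811 and 0.905 to 0.259 and 0.415. Col1a1 fell by 3.13 (SE 0.37, adjusted p = 0.000611), or 8.75-fold in mean CPM, with fitted log2 values from -3.39 to -2.88 over the 16 alternatives and a call in each. The value for Col11a1 fell by 3.13 too (SE 0.51, adjusted p = 0.00688). Without DCC control replicate 2 the Col3a1 and Col11a1 calls were lost (adjusted p = 0.0762 and 0.0704). Col2a1 went from 32.1 and 26.8 to 2.05 and 2.25 CPM and fell by 3.77 (SE 0.54, adjusted p = 0.000814), also in every alternative. Col1a2 fell by 3.005 (SE 0.66, adjusted p = 0.0227), but was not called without DCC control replicate 1 or 2 (0.107 and 0.218), DCC IFN-gamma replicate 1 or 2 (0.151 and 0.0746) or TUBO replicate 1 or 2 (0.0916 and 0.0766), nor by DESeq2 (0.228).

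Both main type IV chains fell to a like degree, Col4a1 by 1.44 (SE 0.25) and Col4a2 by 1.45 (SE 0.28) on the log2 scale (edgeR adjusted p = 0.00281 and 0.00687), in every alternative, and their ratio to each other stayed within 0.381 to 0.426 in the 4 DCC libraries. Col27a1 and Col12a1 fell by 1.66 (SE 0.29) and 1.65 (SE 0.38) (adjusted p = 0.00256 and 0.0225), and the second was lost without DCC control replicate 1 (0.0965) or 2 (0.163). Col15a1 fell by 2.72 (SE 0.67, adjusted p = 0.0339) and lost the call without any 1 of the libraries of DCC control, early lesion and TUBO (0.0598 to 0.248). Plod2 fell by 1.43 (SE 0.25, adjusted p = 0.00364) in every alternative, and its per-kb ratio to Plod1 went from 3.67 and 3.24 to 1.33 and 1.75. Serpinh1 fell by 0.88 (SE 0.20, adjusted p = 0.0117), but was not called without DCC control replicate 2 (0.0507). The other 3 chains that fell were low: Col9a2, Col4a4 and Col4a6 had at most 3.45 CPM in either DCC group, and Col4a6 had 62 counts in DCC control and none after treatment, at least 14.3-fold lower against 3 counts per library. Of its DCC control counts 43 were in replicate 1, and without that library the bound was 6.40-fold, against 22.3-fold without replicate 2. Col4a4 was not called without DCC control replicate 1 (0.0682) or DCC IFN-gamma replicate 2 (0.0806). With both libraries that stood apart left out, the calls of Serpinh1 (0.0859), Col12a1 (0.115), Col15a1 (0.106) and Col4a4 (0.0990) were lost.

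**Figure D5:**
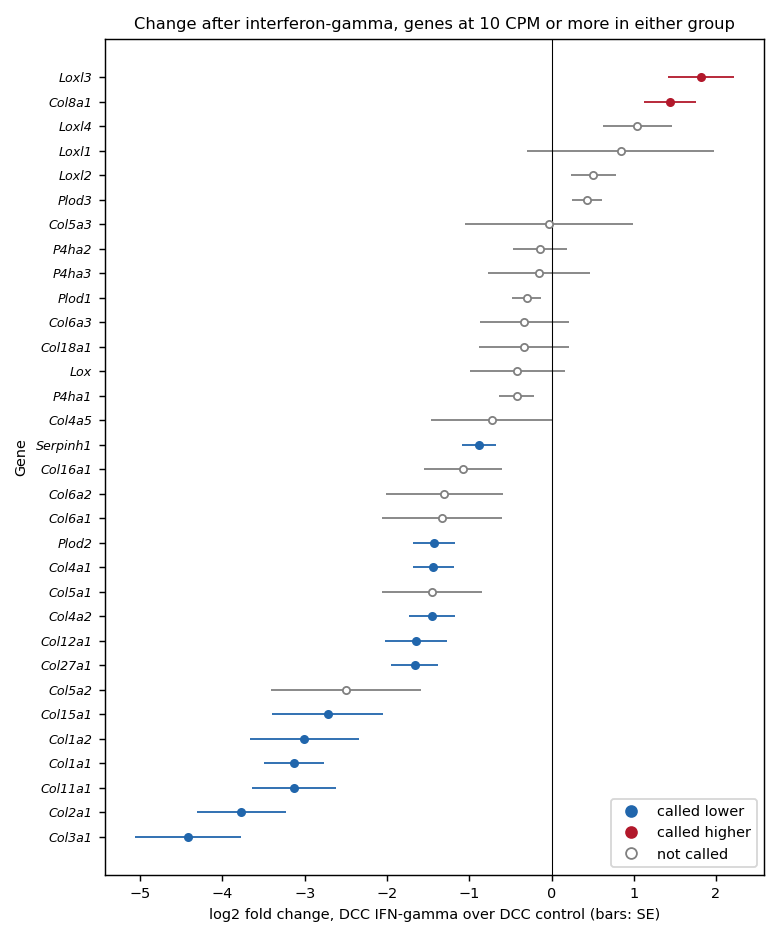
Log2 fold change of DCC IFN-gamma over DCC control (horizontal axis, bars are SE of the edgeR fit) for the genes with a mean of at least 10 CPM in either group (vertical axis, sorted). Blue points were called lower, red points higher and open points were not called, so that Col3a1 sits at -4.42 at the bottom and Loxl3 at 1.82 at the top.

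Col8a1 and Loxl3 were the 2 genes that rose. Col8a1 went from 50.1 and 68.8 to 107 and 217 CPM, a rise of 1.44 ± 0.32 on the log2 scale (edgeR adjusted p = 0.0141). Loxl3 went from 40.5 and 53.6 to 94.7 and 238 CPM, a rise of 1.82 ± 0.40 (adjusted p = 0.0215). Neither was called without DCC control replicate 1 (adjusted p = 0.102 and 0.143), and Loxl3 was also not called without DCC control replicate 2 (0.122) or TUBO replicate 2 (0.0556). With both libraries that stood apart left out, neither was called (0.128 and 0.149). In both genes DCC IFN-gamma replicate 2 was more than 2 times replicate 1.

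Several abundant members were not called with interferon-gamma. The log2 differences were -1.33 ± 0.73 for Col6a1, -1.30 ± 0.71 for Col6a2 and -0.33 ± 0.54 for Col6a3 (edgeR adjusted p = 0.25, 0.25 and 0.69). Treated and untreated libraries did not overlap for Col6a1 and Col6a2, but did for Col6a3. Col6a1 and Col6a2 were each called lower in 1 of the 16 alternatives, and Col6a3 in none. Over the alternatives the log2 values ran from -2.37 to -0.72 for Col6a1 and from -2.45 to -0.66 for Col6a2. The type V chains had log2 differences of -1.45 ± 0.61 for Col5a1 and -2.49 ± 0.91 for Col5a2 (adjusted p = 0.15 and 0.12). In both genes the treated and untreated libraries did not overlap, as in 66.1% of all tested genes. Both were called lower in 5 of the 16 alternatives, among them the fits without early lesion replicate 1 (adjusted p = 0.00117 and 0.0144), without early lesion replicate 2 (0.00182 and 0.0107) and of the 2 groups alone (0.00380 and 0.000674), with log2 values from -1.47 to -1.45 and from -2.51 to -2.49 in these fits. Lox had a difference of -0.42 ± 0.58 (adjusted p = 0.63), with overlapping libraries. P4ha1, Plod1 and Plod3 had differences of -0.42 ± 0.21, -0.30 ± 0.17 and 0.43 ± 0.18 (adjusted p = 0.19, 0.24 and 0.11), and Loxl4 had 1.04 ± 0.42 (0.14). P4ha1 was called lower without DCC IFN-gamma replicate 2 (0.00428), Plod3 higher without DCC IFN-gamma replicate 1 (0.0117), and Loxl4 higher without early lesion replicate 1 (0.00893) or 2 (0.0106). Whether the cross-linking and hydroxylating genes moved less than the fibrillar chains was not tested.

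Some cell type markers were called in this contrast as well, where 8.83% of all tested genes fell and 12.6% rose. Lists with 1 gene called are too short to be set apart from these shares. Of the macrophage markers 11 were measured, of which 8 rose with interferon-gamma and none fell, with a summed level of 119 and 112 CPM in DCC control against 1255 and 938 CPM after treatment. Ptprc, the pan-leukocyte marker, was at 7.24 and 2.69 CPM before and 56.4 and 42.3 CPM after. Of the 8 osteoblast markers 3 fell (Alpl, Ibsp and Runx2) and none rose, and their sum was 15844 and 21544 CPM against 10059 and 25142 CPM, carried by Spp1. Fibroblast and marrow stroma markers summed to 1002 and 1151 CPM before and 635 and 954 CPM after, with 3 lower and 2 higher of 9 tested. Pericyte and smooth muscle markers went from 31.4 and 39.5 to 7.001 and 5.96 CPM, with 1 of 4 tested lower (Acta2), and cartilage markers from 638 and 603 to 265 and 635 CPM, with 1 of 5 lower (Comp). Of 9 epithelial markers tested 3 fell (Cdh1, Krt8 and Grhl2), all from under 2 CPM. Endothelial markers had 0 of 6 called by edgeR. The part of these shifts in the fall of Col1a1, Col3a1 and the other chains was not tested.

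DCC control and early lesion differed in 30 of the 56 genes, 24 higher and 6 lower in DCC control, or 42.9% and 10.7%, where 19.1% and 18.7% of all tested genes were higher and lower and 37.7% either (edgeR adjusted p under 0.05). The median log2 difference was 1.41 against 0.23 over all tested genes. Of the 12 processing genes 10 were higher and Loxl3 was lower, and of the 44 chains 14 were higher and 5 lower (Col9a1, Col9a2, Col9a3, Col14a1 and Col4a1). With DCC control replicate 1 and early lesion replicate 2 both left out, 23 were higher and 4 lower, and 26 of the 30 calls were kept (lost were Col14a1, Col20a1, Loxl2 and Loxl3). The epithelial markers were called lower in DCC control in 8 of 9 tested, and the fibroblast and marrow stroma markers higher in 8 of 9, so that cell type, culture and disease stage cannot be told apart in this comparison.

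Against TUBO 27 of the 56 genes were higher in DCC control and 5 lower, or 48.2% and 8.93%, beside 22.1% and 19.9% of all tested genes (42% in either direction). The median log2 difference was 3.34, or 3.07 with the 13 genes without a count in TUBO set at their bound, against 0.37 over all tested genes. The 19 low chains are in this median too, and it was not recomputed without DCC control replicate 1. The 5 lower genes were Col9a1, Col9a3, Col18a1, Col9a2 and Col4a1. Without the 2 libraries that stood apart 26 were higher and 5 lower, and 31 of the 32 calls were kept. Both comparisons share the DCC control libraries, and so their counts are not independent of each other.

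TUBO and early lesion, both epithelial by their markers, differed in fewer of the genes, as they did over all tested genes. In TUBO 9 were higher and 10 lower than in early lesion, or 16.1% and 17.9%, where 11.4% and 12.7% of all tested genes were higher and lower (24.1% in either direction). The median log2 difference was -1.44, or -1.34 with the 13 genes without a count in TUBO set at their bound, against -0.27 over all tested genes. The 9 higher genes were 5 of processing (Plod1, Plod2, Plod3, P4ha1 and P4ha2) and 4 chains (Col15a1, Col18a1, Col20a1 and Col2a1). The 10 lower genes were 7 chains (Col11a1, Col12a1, Col14a1, Col24a1, Col27a1, Col8a1 and Col9a2) and the lysyl oxidases Loxl2, Loxl3 and Loxl4. In all, 6 of the 19 calls (Col9a2, Col12a1, Col20a1, Plod1, P4ha1 and P4ha2) held in every alternative. With the 2 libraries that stood apart left out, 5 were higher and 6 lower, and 10 of the 19 calls were kept. The number of higher genes was 4 without early lesion replicate 1 and 5 without TUBO replicate 1, and that of lower genes was 16 without early lesion replicate 1, 6 without early lesion replicate 2 and 4 without TUBO replicate 2.

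A wider list of 29 genes that modify, fold, carry or trim procollagen was described beside the members. With interferon-gamma 4 of the 29 fell and 2 rose, beside 8.83% and 12.6% of all tested genes, so that the share called was near the 21.4% over all genes. Tgm2, a transglutaminase that cross-links matrix proteins and a known interferon-gamma target, went from 21.8 and 23.6 to 214 and 405 CPM, a rise of 3.77 ± 0.29 on the log2 scale (edgeR adjusted p = 4.65e-05). Sparc, a collagen-binding matrix protein of bone, fell by 1.83 (SE 0.36, adjusted p = 0.00840) from 2706 and 3172 to 488 and 1161 CPM. Creb3l1, a transcription factor of the secretory pathway that acts on Col1a1 in osteoblasts, fell by 1.43 (SE 0.37, adjusted p = 0.0357), and Crtap, a prolyl 3-hydroxylase partner, by 0.77 (SE 0.19, adjusted p = 0.0169). P3h2, the prolyl 3-hydroxylase of type IV collagen, rose by 0.71 ± 0.16 (adjusted p = 0.0122).

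The same 29 genes were higher in DCC control than in early lesion in 14 and lower in 4, beside 19.1% and 18.7% of all tested genes. Against TUBO they were higher in 13 and lower in 7, beside 22.1% and 19.9% of all tested genes. Pcolce, which speeds the removal of the C-propeptide of fibrillar procollagen, was at 589 and 584 CPM in DCC control, 130.2 and 278 after interferon-gamma, 0.0318 and 0.491 in early lesion cells and 0.966 and 2.06 in TUBO. Fkbp10, a peptidyl-prolyl isomerase needed for telopeptide hydroxylation, was at 175 and 201, 100.3 and 152, 0.445 and 0.312, and 0.241 and 0 CPM. Pxdn, the peroxidasin that forms the sulfilimine bonds of type IV collagen, was at 14.7 and 12.4, 14.99 and 16.8, 187 and 179, and 93.4 and 96.8 CPM, lower in DCC control than in early lesion, with a log2 difference of -3.76 ± 0.17 (edgeR adjusted p = 9.44e-08). Adamts3, a procollagen N-propeptidase, was at 1.11 to 1.70 CPM in DCC control against 51.6 to 53.9 in early lesion and 33.7 to 35.9 in TUBO. P4hb, the common beta subunit of the prolyl 4-hydroxylases, was at 512 and 561, 339.6 and 598, 337 and 349.5, and 814 and 869 CPM, and was higher in TUBO than in early lesion by 1.29 ± 0.24 (adjusted p = 0.00304). In that comparison 4 of the 29 were higher and 8 lower in TUBO, beside 11.4% and 12.7% of all tested genes.

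Of 12 collagen receptor, uptake and breakdown genes 4 fell and none rose with interferon-gamma (Ddr2, Itga1, Itga10 and Mmp2), beside 8.83% and 12.6% of all tested genes. In DCC control 7 were higher and 2 lower than in early lesion (19.1% and 18.7% of all tested genes), and 8 higher and 1 lower than in TUBO (22.1% and 19.9%). Genes named from this list were chosen after their values were seen. Itga11, the alpha 11 integrin subunit that binds type I collagen, was at 350.4 and 379 CPM in DCC control, 31.4 and 129 after interferon-gamma, 0.0318 and 0.758 in early lesion cells and 0.379 and 0 in TUBO. Mmp13, a collagenase of bone and cartilage, was at 919 and 1224, 217 and 687, 0.0318 and 0.223, and 1.14 and 0.534 CPM. The receptor tyrosine kinases for collagen divided between the groups, with Ddr2 at 578 and 608 CPM in DCC control and 2.22 and 2.23 in early lesion, and Ddr1 at 23.7 and 22.2 against 78.6 and 83.6 CPM. Both Ddr differences were called (edgeR adjusted p = 9.83e-08 and 0.000116).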

How the data were processed

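RNA of 8 mouse libraries, 2 in each of 4 groups, was sequenced after Nugen Ovation Mouse RNAseq library preparation, per the labels' protocols. The authors deposited raw counts per gene, made with TopHat, HTSeq 0.6.1 and the mm10 build, per the submitters' processing notes; the strand setting is not given in the sources used here. From these counts, 5 lines that name no gene (35.2% to 63.7% of reads) were left out. Genes were filtered with filterByExpr (minimum count 10), scaled by TMM and fitted with edgeR 4.0.16 (R 4.3.3) as 1 quasi-likelihood model of 4 group means with 4 residual degrees of freedom. The common biological coefficient of variation was 0.416. P-values were adjusted by Benjamini-Hochberg over 17069 genes and called under 0.05, and SE is the log2 fold change divided by the root of F. P-values rest on the spread between the 2 samples of a group, pooled over all 4 groups and shared across genes. A library outside a comparison can therefore change its calls. Nothing in the labels says that the 2 samples of a group came from separate animals. The fit was also run on simulated counts with less spread than these data and without libraries that stood apart. That run therefore does not measure the error rates of the calls given here.

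The members and gene lists were chosen with earlier results of these data known. Named genes were a fixed panel of 20 and up to 5 called members per comparison and direction with a mean of at least 10 CPM; other genes named were chosen after their values were seen. Lengths and positions are from GENCODE M21 (GRCm38), promoters from RefSeq (GRCm38.p6). Alternatives were DESeq2 1.42.0, other scaling and filters, a replicate block, a fit of only the 2 groups in question, and fits without each library in turn or without the 2 that stood apart.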

Additional observations from a re-analysis of the deposited data

How the results depend on the processing

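Of the members called with the settings of the report, 8 of 17 (interferon-gamma), 24 of 30 (DCC control against early lesion), 24 of 32 (DCC control against TUBO) and 6 of 19 (TUBO against early lesion) kept their call in all 16 alternatives, and none reversed. Without the filter on low counts 24 members fell with interferon-gamma in place of 15, and 21 were lower in TUBO than in early lesion in place of 10, where DESeq2 called 19. Without replicate 1 of DCC control and replicate 2 of early lesion together there were 0 members higher with interferon-gamma, 5 higher and 6 lower in TUBO than in early lesion, and 1654, 4112 and 1944 of all genes called with interferon-gamma, between DCC control and early lesion and between TUBO and early lesion, where 3656, 6441 and 4117 had been called. With 1 library left out at a time, 0 to 3 members rose with interferon-gamma, and 2020 to 4128 of all genes were called. Between DCC control and early lesion this range was 4780 to 6996. For TUBO against early lesion the ranges were 4 to 10 higher members, 4 to 16 lower members and 2391 to 5175 of all genes. The cause was not tested. Replicate numbers do not pair the samples by the labels, and same-numbered deviations correlated at 0.0911 for the 2 DCC groups and -0.43 for DCC control and early lesion. A replicate block gave 2 higher and 15 lower members with interferon-gamma, 23 and 5 for DCC control against early lesion, 26 and 5 against TUBO and 8 and 8 for TUBO against early lesion. It ended the calls of Col14a1 (adjusted p = 0.0906), Col20a1 (0.0520) and Col5a3 (0.0879) for DCC control against early lesion, Col25a1 (0.0751) against TUBO, and Col14a1 (0.0574), Col18a1 (0.0609) and Loxl4 (0.0635) for TUBO against early lesion. Upper quartile scaling moved the median of all genes by -0.20 (interferon-gamma) and 0.11 (DCC control against TUBO) on the log2 scale. Depth limited the chains with few counts, where 3 counts stand for 0.0953 to 0.183 CPM.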
